A study of Mus musculus with 32 samples.

Results

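The Slc25 genes encode the mitochondrial carriers, and they were taken as every protein-coding gene of the table whose symbol starts with Slc25a. The rule found 47 genes among 54532 genes in the table, 22046 of them protein-coding. Enough counts for testing were present for 41 of the 47, among 17121 genes tested in all. RNA was measured by sequencing in tibialis anterior, a muscle of the lower leg, of C57BL/6J mice. Every young mouse received vehicle, and old mice received vehicle or BI01, a compound that the series calls a senolytic, meaning one meant to clear senescent cells. Its target, from the series title, is the binding of p53 to MDM2. The 8 groups of 4 libraries each were young uninjured, young at day 7 and at day 35 after injury with barium chloride (BaCl in the labels), old with vehicle uninjured, at day 7 and at day 35, and old with BI01 at day 7 and at day 35. Uninjured old muscle with BI01 was not analysed here. The sources used here give neither the age of the mice nor the dose of BI01. The uninjured libraries are named for PBS and for the 35-day experiment, and none is named for the 7-day one, so injury at day 7 cannot be told apart from the experiment a library belongs to. Whether every library is another mouse is not stated, and the p-values measure the spread between these libraries, which may in part be technical.

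Mitochondrial carriers are small proteins of the inner mitochondrial membrane that are built from repeats of the same fold and exchange a metabolite on the matrix side for another on the cytosolic side. The adenine nucleotide translocators export ATP and import ADP, the phosphate carrier brings in phosphate for ATP synthesis, and the aspartate-glutamate and oxoglutarate carriers form the malate-aspartate shuttle, which moves reducing equivalents into the matrix. Other members bring in acylcarnitines for fat oxidation, iron for haem and iron-sulfur clusters, and cofactors and nucleotides for the mitochondrial genome. Skeletal muscle fibres are rich in mitochondria and use Slc25a4, the adenine nucleotide translocator of heart and muscle, whereas Slc25a5 is the form of most other and of dividing cells.

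The promoters of 4 carriers are shown, as carriers with changes described at length here: Slc25a4 and Slc25a5 in opposite directions after injury, Slc25a24 upward after injury, and Slc25a25 downward with age. Each sequence runs 5′ to 3′ from 250 bases before to 50 after a start site in RefSeq (GRCm38.p6, the mm10 assembly), and the table of such promoters held 36 of the 47 members. Capitals mark the letters TATAAG in the promoters of Slc25a4 and Slc25a5, the letters of the GC box GGGCGG (here on the other strand, CCGCCC) in that of Slc25a24 and the cAMP response element TGACGTCA in that of Slc25a25, which is the only 1 of its 3 listed promoters to hold it.
Slc25a4 at chr8:46211013-46211312 (minus strand): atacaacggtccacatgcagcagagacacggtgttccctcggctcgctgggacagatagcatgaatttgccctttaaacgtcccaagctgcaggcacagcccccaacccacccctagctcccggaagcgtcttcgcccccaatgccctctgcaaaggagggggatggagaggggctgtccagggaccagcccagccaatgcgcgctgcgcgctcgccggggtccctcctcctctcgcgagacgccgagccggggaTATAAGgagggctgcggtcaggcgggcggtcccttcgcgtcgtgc
Slc25a5 at chrX:36795347-36795646 (plus strand): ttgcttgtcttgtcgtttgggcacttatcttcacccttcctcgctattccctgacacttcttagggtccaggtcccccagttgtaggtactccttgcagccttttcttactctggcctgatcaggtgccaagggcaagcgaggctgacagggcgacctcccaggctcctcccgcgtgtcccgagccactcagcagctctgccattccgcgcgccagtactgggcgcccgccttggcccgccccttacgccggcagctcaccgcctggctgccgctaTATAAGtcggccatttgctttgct
Slc25a24 at chr3:109122899-109123198 (plus strand): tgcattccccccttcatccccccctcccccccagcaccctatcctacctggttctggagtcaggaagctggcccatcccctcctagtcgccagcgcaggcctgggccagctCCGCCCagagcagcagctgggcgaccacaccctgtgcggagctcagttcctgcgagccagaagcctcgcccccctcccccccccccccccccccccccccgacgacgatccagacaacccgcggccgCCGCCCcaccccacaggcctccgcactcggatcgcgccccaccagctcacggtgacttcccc
Slc25a25 at chr2:32424017-32424316 (minus strand): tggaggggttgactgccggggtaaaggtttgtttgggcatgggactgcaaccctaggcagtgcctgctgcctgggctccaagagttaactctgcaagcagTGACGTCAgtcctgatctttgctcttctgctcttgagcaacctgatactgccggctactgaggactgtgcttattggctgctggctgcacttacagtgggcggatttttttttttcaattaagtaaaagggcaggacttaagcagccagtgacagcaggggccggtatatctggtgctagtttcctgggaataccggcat
The motifs were chosen after values of these genes were known, and both strands were searched. TATAAG was in 7.43% of 32851 mouse promoters of the same length, or at least 1 promoter of 8.58% of 27025 genes. It was in those of 3 of the 36 members, Slc25a4, Slc25a5 and Slc25a15. In Slc25a4 and Slc25a5 the letters begin after the start site listed in RefSeq, at bases 6 and 27. The count table's annotation instead starts Slc25a5 at base 36795651, after the printed stretch, so by it the letters lie before the start. It starts Slc25a4 at base 46211284 of the minus strand, and there the letters lie after the start by both sources. Whether the letters have a role in either promoter was not tested. TGACGTCA was in 1.79% of promoters (2.03% of genes) and in those of 2 of the 36 members, Slc25a25 and Slc25a36. GGGCGG was in 35.7% of promoters (38.2% of genes) and in those of 30 of the 36 members, and CCAAT was in 37.4% of promoters (41.1% of genes) and in those of 19 members. CACGTG, the E-box of MYC and USF, was in 7.15% of promoters (8.09% of genes) and in those of 7 members. The full palindrome of NRF1 and the ERR site TCAAGGTCA were in 0.971% and 0.423% of promoters (1.07% and 0.466% of genes) and in none of the 36.

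Total counts ran from 14129350 to 30439358 per library. Libraries of the same group differed by more than sampling noise, so none was taken as the same library sequenced again. This cannot show that they come from different mice. The 8 muscle fibre markers, among them the fast myosin gene Myh4 and the skeletal actin gene Acta1, were present in every group, with summed levels of 199377 to 255701 CPM in young uninjured muscle and 179131 to 184920 CPM in old uninjured muscle. At day 7 the sums were 65931 to 138513 CPM in young, 10240 to 63063 CPM in old vehicle and 25950 to 62590 CPM in old BI01 muscle. Fibroblast markers summed to 152 to 471 CPM over the uninjured libraries of both ages and to 7112 to 14813 CPM at day 7, and markers of dividing cells to 0.542 to 10.1 CPM and 55.1 to 309 CPM. The 6 slow fibre markers summed to 0.482 to 2.14 CPM in young uninjured and 2.98 to 165 CPM in old uninjured muscle. The part of these markers in the results for carriers was not tested, and in whole muscle fewer cells of a type and less RNA per cell cannot be told apart.

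Slc25a4 dominated the family. Levels are given in CPM, which are counts set against the library's total and scaled by TMM, a method that sets the bulk of genes equal between libraries, and levels of different genes are compared per kilobase of transcript. Over all 32 libraries Slc25a4 averaged 1025 CPM per kilobase, ahead of 115 for the phosphate carrier Slc25a3, 99.4 for the oxoglutarate carrier Slc25a11, 70.2 for the aspartate-glutamate carrier Slc25a12, 42.2 for Slc25a5 and 19.7 for the mitoferrin Slc25a28. Slc25a4 made up 66.9% ± 5.60 (SD, n = 4) of the family's CPM per kilobase in young uninjured and 71.6% ± 1.82 in old uninjured muscle. Its share was 56.7% ± 6.23 at day 7 in young muscle, 41.7% ± 11.9 in old vehicle muscle and 47.4% ± 9.83 in old BI01 muscle. It stood between 70.4% and 70.8% in all 3 groups at day 35. The share of Slc25a5 went the other way, from 0.953% ± 0.326 to 8.03% ± 2.17 in young and from 1.12% ± 0.494 to 15.3% ± 6.87 in old vehicle muscle at day 7. It was 0.743% to 1.05% at day 35. The summed level of all 47 members was 5072 ± 1184 CPM in young uninjured and 2886 ± 694 CPM in young muscle at day 7, and 5954 ± 739 CPM and 1759 ± 497 CPM in old vehicle muscle.

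**Figure D1:**
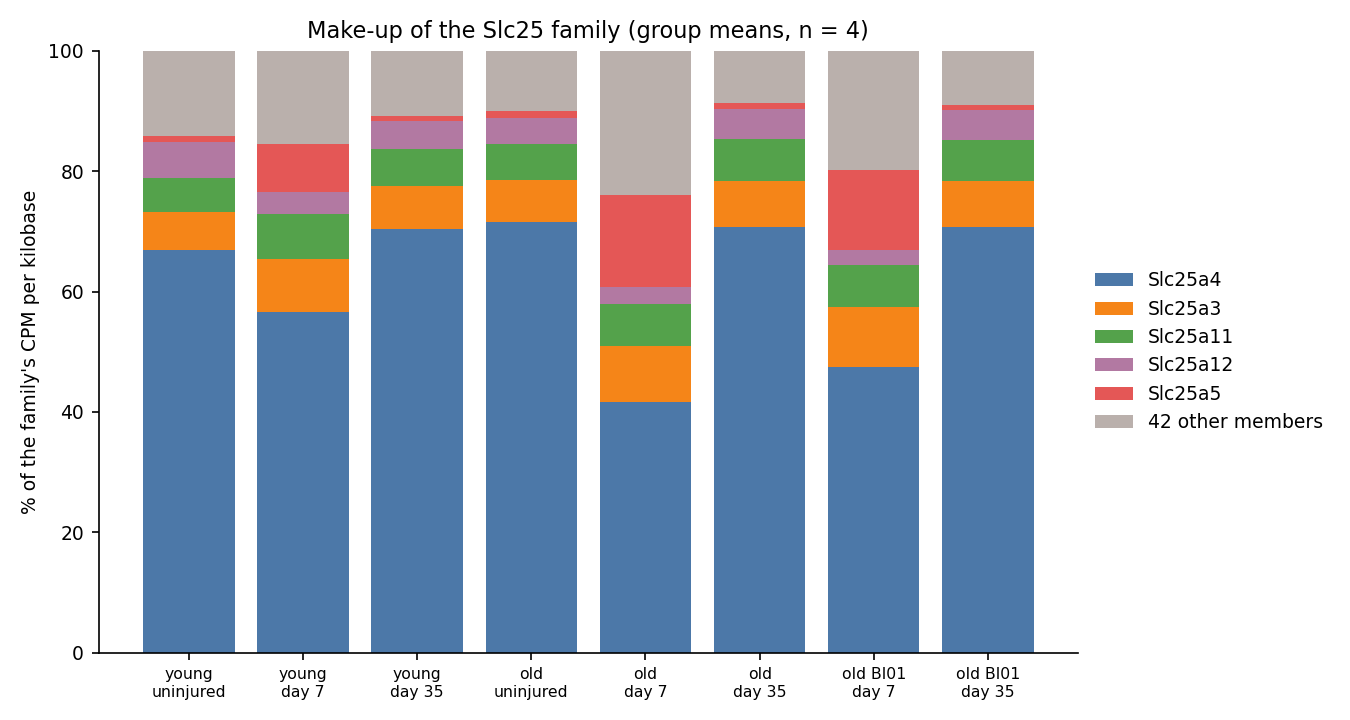
Stacked bars give each carrier's share of the summed CPM per kilobase of the Slc25 family (y axis, %) as the mean of 4 libraries in each of the 8 groups (x axis). Slc25a4 holds 66.9% to 71.6% outside day 7 and 41.7% to 56.7% at day 7, where Slc25a5 reaches 8.03% to 15.3%.

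At day 7 after injury members of the family were called in both directions, as were genes of the whole table. A gene was called, and is said to rise or fall, when its adjusted p in edgeR's quasi-likelihood test was under 0.05. In young muscle 23 of the 41 tested members were called (56.1%, against 60.8% of all genes tested), 9 higher and 14 lower, and in old vehicle muscle 29 (70.7%, against 64.2%), 7 higher and 22 lower. Of all genes tested 33.3% were called higher and 27.5% lower in young muscle, and 34.4% higher and 29.8% lower in old muscle. The median member changed by -0.28 on the log2 scale in young and -0.83 in old vehicle muscle, where the median of all genes tested was 0.17 and 0.14. The median in young muscle was the same with Slc25a43, which had no count in young uninjured muscle, set at its lower bound. These directions depended on the scaling: with library size alone 20 members were higher and 8 lower in young muscle (59.6% and 8.69% of all genes, 68.3% in all) and 16 higher and 12 lower in old (62.9% and 10.3%, 73.2% in all), while the median of all genes moved to 1.05 and 1.15. The uninjured and day 7 libraries did not overlap for 22 members in young and 31 in old muscle, where the same held for 49.1% and 57.0% of all genes. In both ages 7 members rose (Slc25a1, Slc25a5, Slc25a10, Slc25a13, Slc25a24, Slc25a43 and Slc25a45) and 13 fell. A further 9 fell in old and did not pass in young muscle, Slc25a25 fell in young and did not pass in old muscle, and Slc25a17 and Slc25a37 rose in young and did not pass in old muscle. The share of all genes called at both ages is not given here, so whether these joint counts differ from it was not tested. Both comparisons at day 7 use the uninjured libraries that also serve the comparisons of age and of day 35, so these results share libraries.

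**Figure D2:**
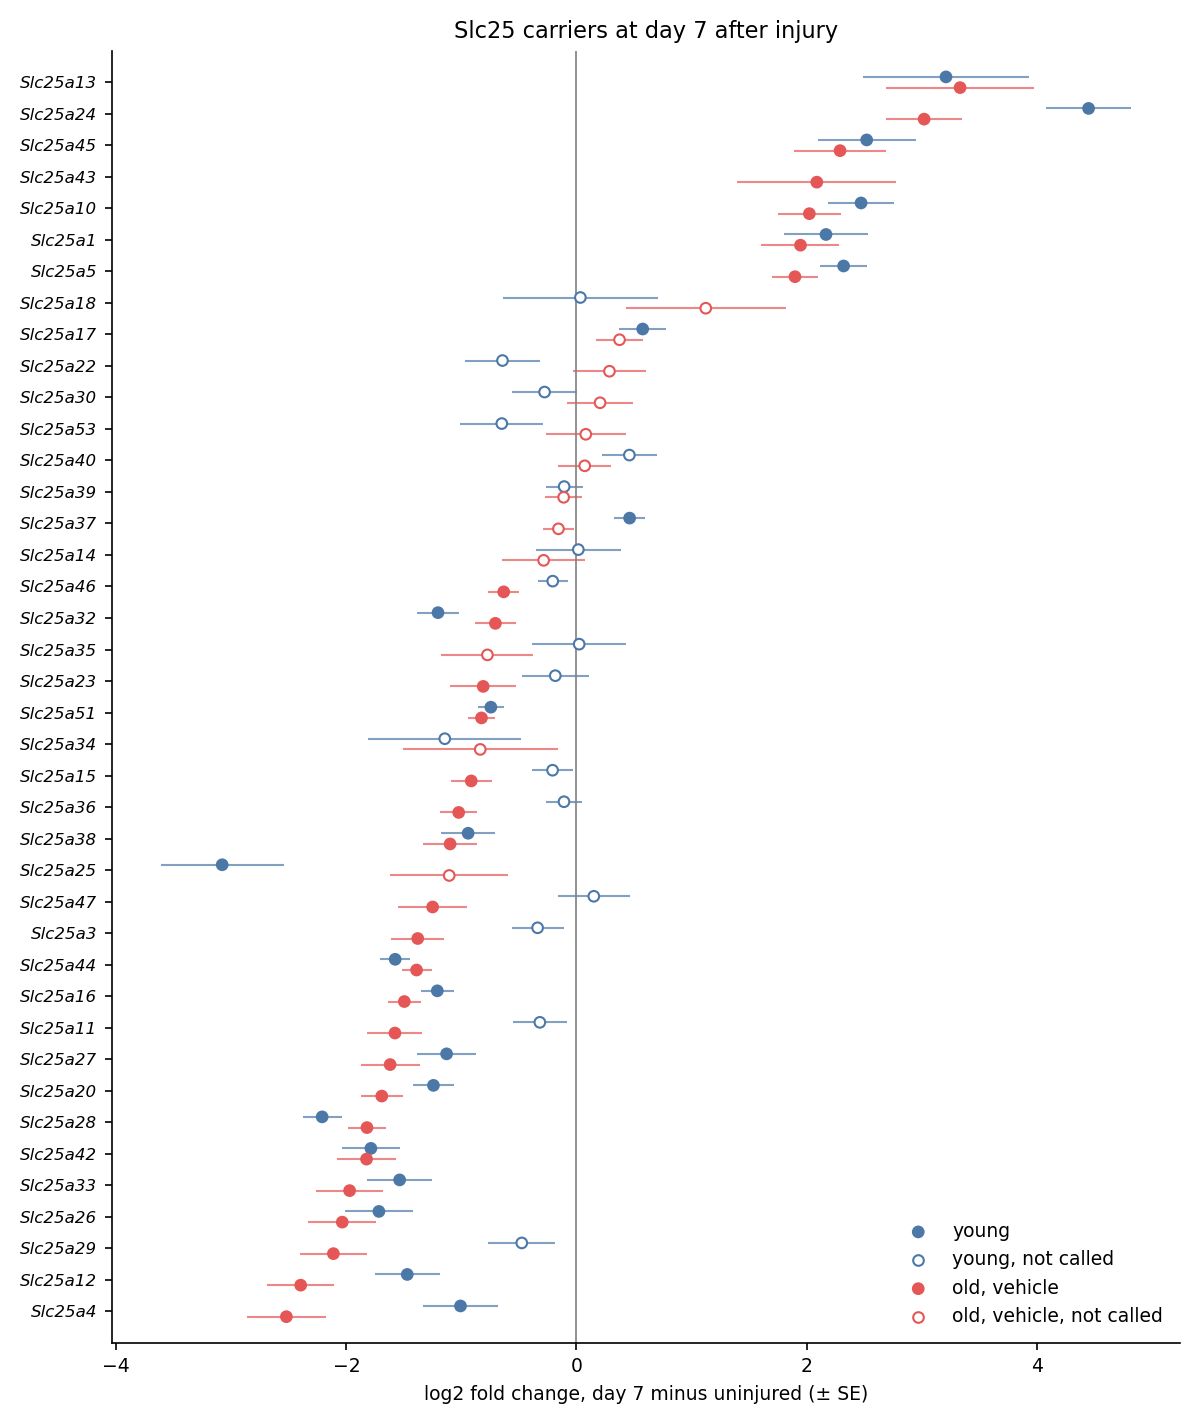
Points give the log2 fold change of tested carriers (y axis) from uninjured to day 7 (x axis), with bars of ± 1 SE, in young (blue) and old vehicle (red) muscle, and open points did not pass the test. Slc25a43 in young muscle is not drawn because young uninjured muscle had no count of it, and with library size alone 16 of the old calls are higher and 12 lower.

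The adenine nucleotide translocators moved in opposite directions at day 7. Slc25a4 stood at 1985, 3348, 1717 and 3503 CPM in the young uninjured libraries and at 805, 1151, 1327 and 1964 CPM at day 7. Of the young uninjured libraries 1 lay below the highest at day 7, so these groups overlapped, and the log2 fold change was -1.01, SE 0.33, adjusted p = 0.00934; with library size alone this call was lost. In old vehicle muscle it stood at 4039, 2734, 3379 and 3512 CPM uninjured and 253, 575, 1027 and 525 CPM at day 7, with no overlap and a log2 fold change of -2.52, SE 0.35, adjusted p = 2.04e-07. Every old library at day 7 was below every uninjured library, and the lowest of them, library 7, was also the lowest in summed muscle fibre markers, at 10240 CPM. The other libraries did not keep this order. Library 10, with 63063 CPM of these markers, held 525 CPM of Slc25a4, and library 9, with 49832 CPM, held 1027 CPM. Slc25a5 rose from 25.4, 26.8, 25.2 and 19.1 CPM to 119.5, 119, 134 and 110.3 CPM in young and from 31.3, 51.0, 34.6 and 26.9 CPM to 179.6, 118, 135 and 105 CPM in old vehicle muscle. The groups did not overlap, and the log2 fold changes were 2.32, SE 0.21, adjusted p = 7.75e-11 and 1.90, SE 0.20, adjusted p = 1.71e-09. Counts for a processed pseudogene of Slc25a5 were 0 to 6 per group, against 1101 to 17126 for Slc25a5, though reads of such copies can be shared out in ways the table does not show. Slc25a31, the translocator of germ cells, had 0 to 11 counts per group and was not tested.

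The ratio of Slc25a5 to Slc25a4 within a library does not depend on the scaling between libraries. By the mean of the log2 ratio, with 0.5 added to each count, there was 1 count of Slc25a5 per 105 of Slc25a4 in young uninjured muscle (mean log2 ratio -6.71 ± 0.65, SD, n = 4) and 1 per 10.4 at day 7 (-3.37 ± 0.58). In old vehicle muscle there was 1 per 96.8 uninjured (-6.60 ± 0.60) and 1 per 4.02 at day 7 (-2.01 ± 1.05). The ratio was thus 10.1-fold higher at day 7 in young and 24.1-fold higher in old muscle, with no overlap in either. An exact two-sided permutation test gave p = 0.0286 for each, the smallest that 70 splits allow, and 0.129 after adjustment over 9 comparisons, so neither passed. With only these comparisons at the smallest p, the adjusted p could not fall under 0.05 however large the change. Not passing therefore says nothing about the size of the change. At day 35 the mean was -7.09 ± 0.20 in young and -6.61 ± 0.27 in old vehicle muscle, within the range of the uninjured libraries. The ages differed by 1.36 at day 7 with overlapping groups (exact permutation p = 0.0571, adjusted 0.171).

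**Figure D3:**
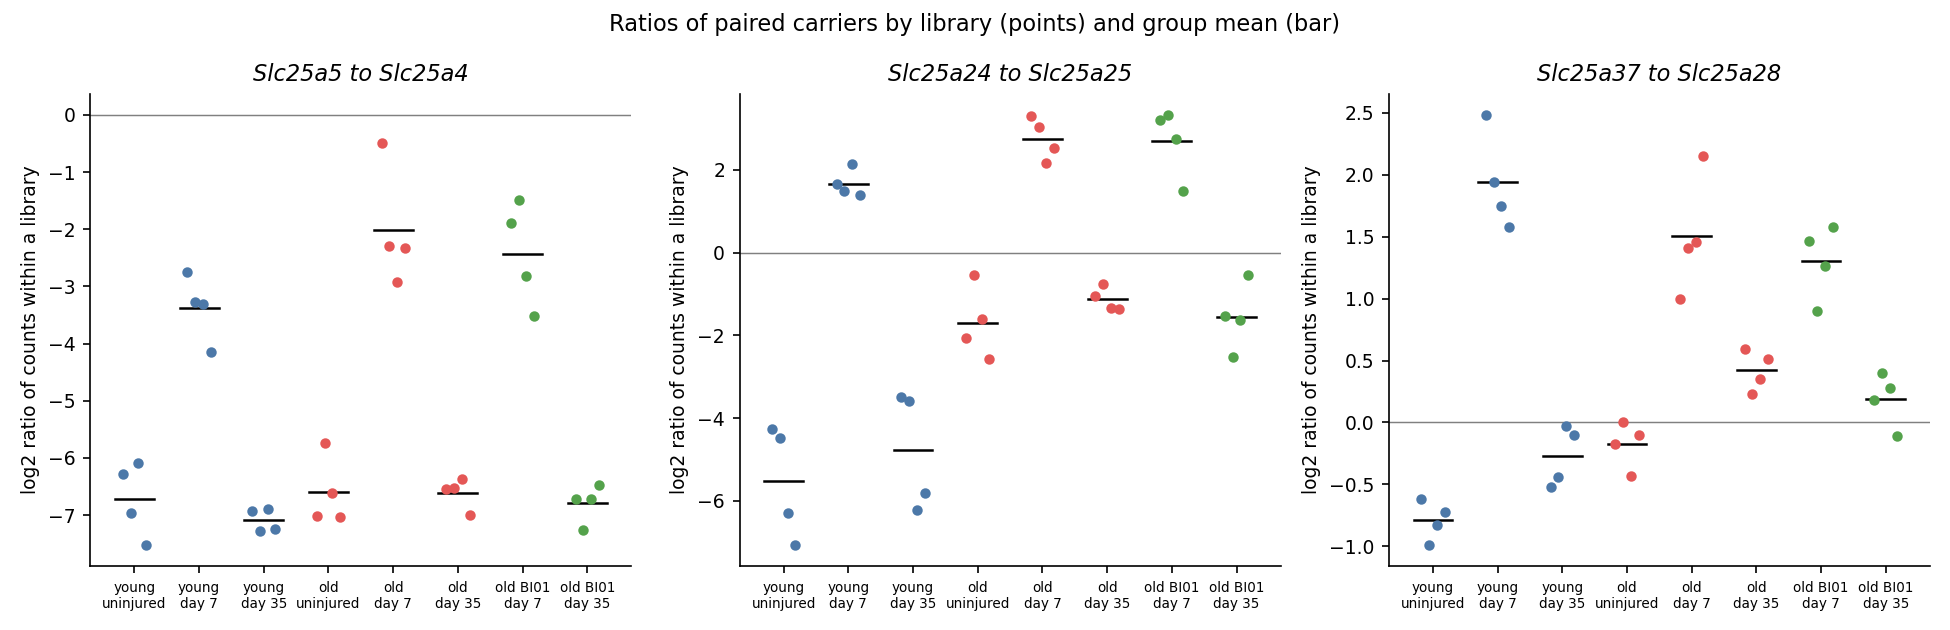
Points give the log2 ratio of counts of a pair of related carriers within each library (y axis) in the 8 groups (x axis), and bars the group mean. Counts are not set against gene length here, so 0 does not mark equal levels per kilobase. The ratio of Slc25a5 to Slc25a4 rises from means of -6.71 and -6.60 in uninjured muscle to -3.37 and -2.01 at day 7. It stays below 0 in counts, but per kilobase Slc25a5 held 25.4% and Slc25a4 25.0% of the family in old vehicle day 7 library 7. The count ratios of Slc25a24 to Slc25a25 and Slc25a37 to Slc25a28 are above 0 in every library at day 7. For Slc25a37 to Slc25a28 this is not confined to day 7. At day 35 that ratio runs from 0.23 to 0.60 in old vehicle, -0.11 to 0.40 in old BI01 and -0.52 to -0.03 in young muscle.

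Slc25a3, the phosphate carrier, stood at 834, 682, 772 and 826 CPM in old uninjured muscle and 252, 272, 459 and 214 CPM at day 7 (log2 fold change -1.38, SE 0.23, adjusted p = 5.37e-06), with no overlap, though with library size alone it was at -0.38 and did not pass. In young muscle it stood at 515, 763, 374 and 657 CPM and 356, 439, 462 and 570.2 CPM, and the change of -0.34 (SE 0.23) did not pass (adjusted p = 0.198). ATP synthase, which uses the imported phosphate and ADP, and the mitochondrial creatine kinase had 8 of 9 tested genes lower and 1 higher at day 7 in old muscle (median -1.28) and 1 lower and 1 higher in young muscle (median -0.20). Under library size alone 3 of them were lower and 1 higher in old, and none lower and 7 higher in young muscle. Ckmt2, the mitochondrial creatine kinase of muscle, fell by 2.86 on the log2 scale in old muscle, and Atpif1, the inhibitor of the ATP synthase, rose by 1.95 in young muscle.

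Of the carriers of the malate-aspartate shuttle, Slc25a12 fell at day 7 in both ages, Slc25a11 in old muscle, and Slc25a13 rose in both. Slc25a12, the aspartate-glutamate carrier of excitable tissue, stood at 611, 713, 739 and 754 CPM in young uninjured muscle and 212, 205, 257 and 343 CPM at day 7 (log2 fold change -1.47, SE 0.28, adjusted p = 4.26e-05). In old vehicle muscle it went from 731, 539, 627 and 694 CPM to 45.7, 123, 159.9 and 163 CPM (log2 fold change -2.40, SE 0.29, adjusted p = 2.26e-08). No library at day 7 reached an uninjured library at either age. Slc25a11, the oxoglutarate carrier, went from 311, 208, 233 and 266 CPM to 57.5, 84.5, 129 and 70.6 CPM in old muscle (log2 fold change -1.58, SE 0.24, adjusted p = 1.1e-06). In young muscle its groups, 164, 237, 139 and 232 CPM and 109, 139, 166 and 205 CPM, overlapped and the change of -0.32 (SE 0.23) did not pass (adjusted p = 0.24). Slc25a11 overlaps Rnf167 on the opposite strand, which averaged 29.8 CPM, and the sources used here do not give the strandedness of the counts. Slc25a13, the aspartate-glutamate carrier of liver, rose from 0.387, 0.178, 0 and 0.0965 CPM to 2.02, 2.16, 1.66 and 0.734 CPM in young (log2 fold change 3.21, SE 0.72, adjusted p = 0.000291) and from 0.153, 0.557, 0.160 and 0.181 CPM to 5.64, 2.08, 1.75 and 2.02 CPM in old vehicle muscle (log2 fold change 3.33, SE 0.64, adjusted p = 4.07e-05). It stayed far below Slc25a12 all the same: the mean log2 ratio of Slc25a13 to Slc25a12 was -12.11 ± 1.46 in young uninjured, -7.33 ± 1.03 in young day 7, -11.28 ± 0.95 in old uninjured and -5.43 ± 1.63 in old day 7 muscle. Without young uninjured library 1 the rise in young muscle was 4.07, and without old uninjured library 7 that in old muscle was 4.06. Of 6 enzymes of the malate-aspartate and glycerophosphate shuttles, 6 fell in old muscle (median -2.03) and 2 in young muscle (median -0.68), where 27.5% of all genes were lower and the other enzymes did not pass. Scaling by library size alone left 4 lower in old, and 1 lower and 2 higher in young muscle. Got1, the cytosolic aspartate aminotransferase, was at -2.62 in old and -1.08 in young muscle, and Gpd2, the mitochondrial glycerophosphate dehydrogenase, at -2.94 and -2.06.

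**Figure D4:**
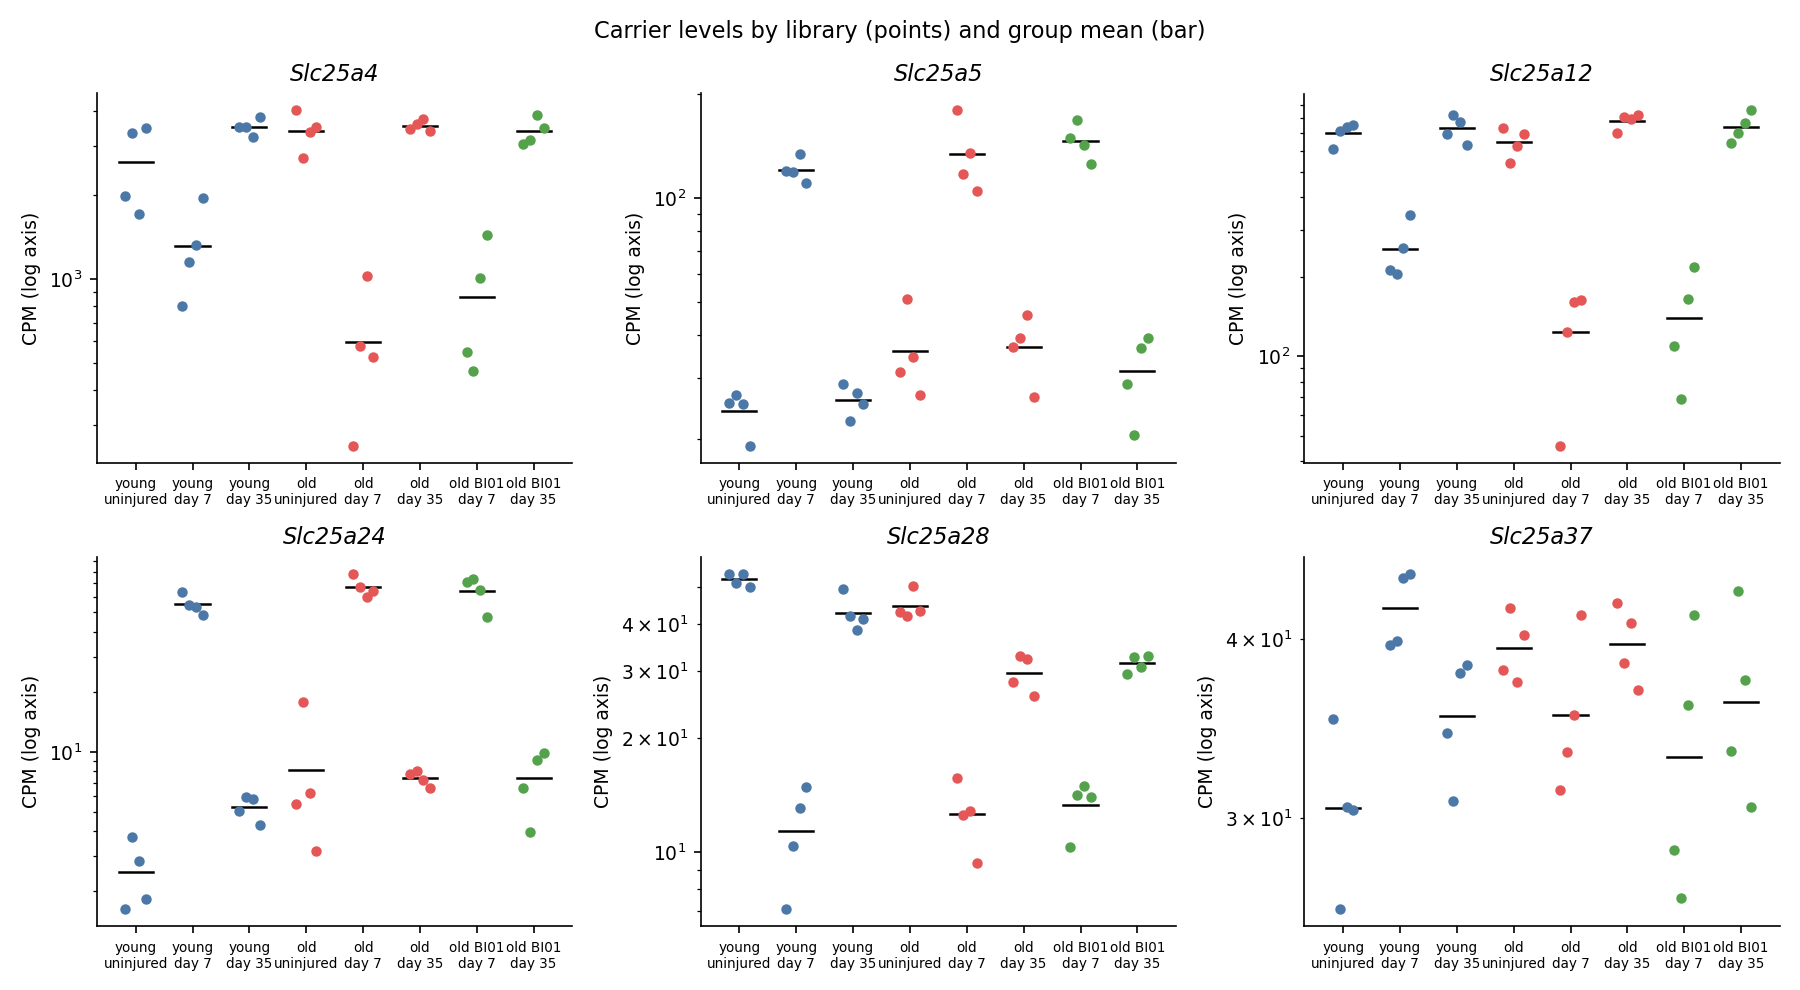
Points give the CPM of 6 carriers in each library (y axis, log scale) by group (x axis), and bars the group mean. Slc25a4, Slc25a12 and Slc25a28 are low at day 7 and Slc25a5 and Slc25a24 high, with Slc25a24 between 47.1 and 78.1 CPM in the 12 libraries at day 7 and between 1.62 and 17.7 CPM in the others.

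Slc25a1, Slc25a10 and Slc25a45 were higher at day 7, from low levels. Slc25a1, the citrate carrier, which supplies carbon for fat synthesis, went from a mean of 1.42 to 6.33 CPM in young (log2 fold change 2.17, SE 0.36, adjusted p = 6.15e-06) and from 2.39 to 9.14 CPM in old vehicle muscle (log2 fold change 1.95, SE 0.34, adjusted p = 9.76e-06). Slc25a10, the dicarboxylate carrier, stood at 1.47, 3.20, 2.48 and 3.86 CPM in young uninjured and 10.6, 15.0, 23.1 and 12.2 CPM in young day 7 libraries (log2 fold change 2.47, SE 0.29, adjusted p = 1.24e-08). Old vehicle muscle held 2.82, 4.54, 4.32 and 4.25 CPM uninjured and 20.4, 16.8, 17.5 and 10.6 CPM at day 7 (log2 fold change 2.02, SE 0.27, adjusted p = 1.47e-07). Neither gene overlapped between uninjured and day 7 libraries at either age. Slc25a45, a member whose substrate is less well known, went from 1.47, 1.69, 0.920 and 0.289 to 5.85, 9.16, 7.64 and 2.81 CPM in young (log2 fold change 2.52, SE 0.43, adjusted p = 7.3e-06) and from 2.44, 1.91, 1.36 and 0.814 to 9.96, 7.96, 10.7 and 3.10 CPM in old muscle (log2 fold change 2.29, SE 0.40, adjusted p = 1.12e-05).

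Of the ATP-magnesium/phosphate carriers, which are regulated by calcium and set the adenine nucleotide content of the matrix, Slc25a24 and Slc25a25 changed places in counts. The fall of Slc25a25 passed in young muscle only. Slc25a24 stood at 1.62, 3.74, 2.85 and 1.83 CPM in young uninjured and 63.5, 54.5, 53.0 and 48.6 CPM in young day 7 muscle (log2 fold change 4.45, SE 0.37, adjusted p = 4.74e-11). It went from 5.49, 17.7, 6.24 and 3.16 CPM to 78.1, 67.0, 59.6 and 64.0 CPM in old vehicle muscle (log2 fold change 3.02, SE 0.33, adjusted p = 4.73e-09), and without old uninjured library 7, which alone held 17.7 CPM, the change was 3.78. Slc25a25, the form of muscle and brain, stood at 31.9, 85.0, 227 and 250.2 CPM in young uninjured muscle and 20.2, 19.6, 12 and 18.5 CPM at day 7 (log2 fold change -3.08, SE 0.54, adjusted p = 1.8e-05). Its young uninjured libraries ranged widely, but all lay above those of day 7. Slc25a25 was already low in old vehicle muscle, at 23.2, 25.8, 19.1 and 19.0 CPM, and stood at 7.90, 8.22, 13.3 and 11.1 CPM at day 7; the groups did not overlap and the change of -1.11 (SE 0.51) did not pass (adjusted p = 0.0608). Within a library Slc25a25 had 46.1 counts per count of Slc25a24 in young uninjured muscle and 3.25 in old, whereas Slc25a24 had 3.17 and 6.73 counts per count of Slc25a25 at day 7 in young and old vehicle muscle. These counts are not set against the lengths, 7862 bases for Slc25a25 and 3431 for Slc25a24. Slc25a23 went from a mean of 19.8 to 11.3 CPM in old muscle (log2 fold change -0.81, SE 0.29, adjusted p = 0.0156), a call that was lost without old day 7 library 7 (adjusted p = 0.0689) and that turned to 0.15 with library size alone. Of the calcium uniporter genes, through which calcium enters the matrix, 5 of 8 rose and 1 fell in young muscle at day 7, and 3 rose and 3 fell in old, or 6 and 1 in young and 5 and 1 in old with library size alone. Mcu, the pore, rose by 0.99 in young muscle, and Mcub, which restrains the pore, rose by 3.65 in old.

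The mitoferrins, which import iron, parted at day 7. Slc25a28, the mitoferrin of most tissues, stood at 54.1, 51.3, 54.2 and 50.1 CPM in young uninjured and 7.07, 10.4, 13.1 and 14.9 CPM in young day 7 muscle (log2 fold change -2.21, SE 0.17, adjusted p = 5.82e-12). It stood at 43.0, 42, 50.4 and 43.1 CPM and 15.7, 12.5, 12.8 and 9.36 CPM in old vehicle muscle (log2 fold change -1.82, SE 0.17, adjusted p = 1.29e-10). All libraries at day 7 were below 16 CPM and all uninjured libraries above 40 CPM. Slc25a37, the mitoferrin known from red cell precursors, stood at 35.2, 25.9, 30.5 and 30.4 CPM and 39.6, 39.9, 44.2 and 44.5 CPM in young muscle (log2 fold change 0.46, SE 0.13, adjusted p = 0.00375). In old vehicle muscle it stood at 38.1, 42.1, 37.4 and 40.3 CPM and 31.4, 33.4, 35.4 and 41.6 CPM, with overlap and a change of -0.16 (SE 0.13, adjusted p = 0.307). The mean log2 ratio of Slc25a37 to Slc25a28 was -0.79 ± 0.16 in young uninjured and 1.94 ± 0.39 in young day 7 muscle, and -0.18 ± 0.19 and 1.51 ± 0.48 in old vehicle muscle. This is a ratio of counts, and Slc25a37 is 6021 bases long against 1514 for Slc25a28. A value above 0 therefore does not place Slc25a37 above Slc25a28 per kilobase. Red cell markers summed to 57.8 to 137 CPM in young uninjured and 10.6 to 26.8 CPM in young day 7 muscle, and to 67.5 to 512 CPM and 19.7 to 39.9 CPM in old vehicle muscle; their part in the values of Slc25a37 was not tested. Slc25a38, which brings in glycine for haem, fell by 0.94 (SE 0.24) in young and 1.10 (SE 0.23) in old muscle, and neither call held with library size alone (-0.06 and -0.08). Haem and iron-sulfur synthesis had 7 of 10 genes lower and 1 higher in young and 9 of 10 lower in old muscle (medians -0.81 and -1.66), and with library size alone 1 was lower and 2 higher in young and 6 lower and 1 higher in old. Cpox, a late enzyme of haem synthesis, was at -1.71 and -1.77.

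Carriers of cofactors, nucleotides and fuel were mostly lower at day 7. Slc25a42, which exchanges coenzyme A, went from 41.9, 52.1, 35.5 and 54.7 to 9.68, 9.79, 16.8 and 17.2 CPM in young (log2 fold change -1.79, SE 0.26, adjusted p = 5.4e-07) and from 42.9, 44.3, 39.5 and 41.5 to 5.58, 10.8, 14.6 and 16.6 CPM in old vehicle muscle (log2 fold change -1.82, SE 0.25, adjusted p = 3.14e-07). Slc25a33, a pyrimidine nucleotide carrier, fell from 24.5, 17, 23.8 and 14.1 to 5.10, 5.72, 6.83 and 9.85 CPM in young (log2 fold change -1.54, SE 0.28, adjusted p = 2.47e-05) and from 16, 11, 13 and 14.8 to 2.45, 3.54, 5.35 and 2.63 CPM in old muscle (log2 fold change -1.97, SE 0.29, adjusted p = 6.65e-07). The other pyrimidine nucleotide carrier, Slc25a36, stood at 73.5, 57.7, 63.2 and 55.8 CPM and 27.4, 39.5, 30.2 and 25.9 CPM in old muscle (log2 fold change -1.02, SE 0.16, adjusted p = 1.67e-06) and did not pass in young muscle (-0.11, SE 0.16, adjusted p = 0.567). Its call in old muscle was lost with library size alone, at -0.02. Slc25a44, a carrier of branched-chain amino acids, went from 64.3, 47.3, 58.8 and 47.8 to 17.5, 17.3, 20.8 and 17.7 CPM in young (log2 fold change -1.58, SE 0.13, adjusted p = 2.58e-11) and from 43.4, 44.3, 44.3 and 45.2 to 13.8, 18.2, 15.1 and 20.6 CPM in old muscle (log2 fold change -1.39, SE 0.13, adjusted p = 1.92e-10). None of these groups overlapped, apart from those of Slc25a36 in young muscle.

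Slc25a20, which exchanges acylcarnitines for carnitine, went from means of 71.3 to 30.1 CPM in young (log2 fold change -1.24, SE 0.18, adjusted p = 7.33e-07) and 66.9 to 20.7 CPM in old muscle (log2 fold change -1.69, SE 0.18, adjusted p = 3.01e-09). By library size alone the call in young muscle was lost (-0.37). Of 8 carnitine shuttle enzymes, 6 were lower in young and 7 in old muscle, 1 being higher at each age. With library size alone 3 of these enzymes were lower and 2 higher in young and 4 lower and 1 higher in old muscle. Crat, the carnitine acetyltransferase, was at -1.63 and -2.14. Slc25a26, which brings in S-adenosylmethionine, fell by 1.72 (SE 0.30) and 2.04 (SE 0.30); it overlaps Lrig1 on the opposite strand, which averaged 72.5 CPM, more than Slc25a26 itself. Slc25a27, a member close to the uncoupling proteins, fell by 1.13 (SE 0.26), a call lost with library size alone (-0.26), and 1.62 (SE 0.26), Slc25a16 by 1.21 (SE 0.14) and 1.5 (SE 0.14), and Slc25a51, the NAD carrier, by 0.74 (SE 0.11) and 0.83 (SE 0.11), although Slc25a51 turned to 0.14 and 0.17 with library size alone. Slc25a32, which brings in folate and FAD, fell by 1.2 (SE 0.18) in young and 0.70 (SE 0.18) in old muscle; with library size alone the former did not pass and the latter turned to 0.30. In old muscle the ornithine carrier Slc25a15 fell by 0.91 (SE 0.18) and Slc25a46, an outer membrane member tied to mitochondrial shape, by 0.63 (SE 0.13); with library size alone Slc25a15 and Slc25a46 turned to 0.07 and 0.36.

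Slc25a39 and Slc25a40, the glutathione carriers, passed in none of the 9 comparisons. Slc25a39 stood at 36.9, 46.6, 47.9 and 38.0 CPM in young uninjured and 36.8, 39.0, 44.4 and 37.1 CPM in young day 7 muscle, and at 45.7, 37.5, 37.3 and 46.9 CPM and 47.6, 41.8, 36.5 and 28.9 CPM in old vehicle muscle. These groups overlapped, and the change in old muscle was -0.11 (SE 0.16, adjusted p = 0.554). Slc25a40 averaged 4.37 to 6.81 CPM over the 8 groups. The other tested members never called were Slc25a14 (group means of 1.45 to 2.12 CPM), Slc25a18 (0.263 to 0.754 CPM), Slc25a35 (3.32 to 6.33 CPM) and Slc25a53 (1.10 to 2.73 CPM), which does not show that their levels were equal. The remaining 35 passed at least once, and the share of all genes that did so is not given here. Slc25a17, a carrier of peroxisomes, rose in young muscle at day 7, from a mean of 9.15 to 13.6 CPM (log2 fold change 0.58, SE 0.20, adjusted p = 0.0157), and this ended without young uninjured library 4 (edgeR adjusted p = 0.0508) or young day 7 library 4 (0.0938).

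Some members were hardly or never counted. Slc25a43, whose substrate is not known, had 0 counts in young uninjured, 108 in young day 7 and 24 in old uninjured muscle. With the floor set at 3 counts for the whole group, it was at least 18.7-fold higher in young muscle at day 7 and at least 4.99-fold higher in old than in young uninjured muscle; in old vehicle muscle at day 7 it rose by 2.09 (SE 0.69, adjusted p = 0.0101). The old uninjured libraries held 0.458, 0.637, 0.160 and 0 CPM, and without library 7 of them the rise at day 7 was 2.81. The call for age was lost in limma voom (adjusted p = 0.215). Not tested for low counts were Slc25a2 (2 to 22 counts per group), Slc25a21 (0 to 6), Slc25a31 (0 to 11), Slc25a41 (0 to 8), Slc25a48 (0 to 4) and Slc25a54 (0 to 39). Slc25a54 had 39, 15 and 37 counts at day 7 in young, old vehicle and old BI01 muscle, and 0 to 5 counts in each other group.

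Uncoupling proteins belong to the same family under another name. Ucp2, the form of immune and many other cells, rose by 2.80 in young and 3.65 in old muscle at day 7, from means of 11.5 to 80.2 CPM and 9.72 to 123.5 CPM. Ucp3, the form of skeletal muscle, averaged 605 ± 131 CPM in young uninjured and 110.2 ± 27.1 CPM in old uninjured muscle (-2.46, adjusted p = 0.0012). It fell by 3.55 at day 7 in young muscle, to 51.9 ± 8.85 CPM.

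Set against 13 mitochondrial content genes, which encode respiratory chain, matrix and related proteins, 2 of 41 carriers were lower in old muscle at day 7, beside 5.23% of all genes. These 13 genes themselves were lower at day 7, 6 of 13 in young (median -0.53) and 13 of 13 in old muscle (median -1.40), whereas with library size alone 5 were higher and none lower in young and 5 lower and none higher in old. In the same libraries mitochondrially encoded RNA made up 10.1% to 15.0% of counts in young uninjured and 6.00% to 7.91% in young day 7 libraries, and 11.6% to 14.9% in old uninjured and 3.06% to 5.34% in old vehicle day 7 libraries. With libraries scaled to these genes, an alternative chosen after the data were seen, 11 members were higher and 12 lower in young and 21 higher and 2 lower in old muscle at day 7. The 2 lower in old muscle were Slc25a4 (-1.15) and Slc25a12 (-0.98). Of all genes 42.0% were then called higher and 12.2% lower in young muscle, and 74.2% higher in old muscle, so this scaling moved most genes upward there along with the carriers. Slc25a3, Slc25a15, Slc25a23, Slc25a32, Slc25a36, Slc25a38, Slc25a44, Slc25a46, Slc25a47 and Slc25a51, lower in old muscle by TMM, were at 0.09 to 0.87 here.

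The response to injury at day 7 differed between the ages for a subset of carriers. The contrast is of responses, so a higher uninjured level in old muscle lowers it, as does a lower day 7 level. The difference between the 2 responses passed for 9 of 41 members (22.0%, against 7.70% of all genes). All 9 had a more negative log2 response in old than in young muscle (4.48% of all genes were called in that direction and 3.22% in the other). Among them were Slc25a4 (-1.51, SE 0.46), Slc25a3 (-1.04, SE 0.32), Slc25a11 (-1.26, SE 0.33), Slc25a36 (-0.92, SE 0.22), Slc25a37 (-0.62, SE 0.19), Slc25a29 (-1.64, SE 0.41), Slc25a47 (-1.40, SE 0.43) and Slc25a43, whose fitted value of -5.36 rests on 0 counts in young uninjured muscle and is no bound. The median member was at -0.39 and the median gene at -0.07. Slc25a29 and Slc25a36 passed whichever library was left out, with adjusted p of 0.0142 and 0.0128 over all libraries, but Slc25a29 did not pass with the 4 groups fitted alone (0.0750), nor Slc25a36 with library size alone (0.0561). The count fell to 3 without young uninjured library 3, to 5 when young uninjured library 1, old uninjured library 8 or young day 7 library 7 was left out, and to 4 without old uninjured library 6, young day 7 library 6, or library 7 or 8 of old day 7. With the 4 groups fitted alone 1 member passed, and scaled to mitochondrial content genes 10 of 11 members called were higher instead, where 32.6% of all genes were called higher.

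Slc25a29 and Slc25a47 lie beside each other and moved alike. Slc25a29, which carries lysine and arginine, and Slc25a47, a member first described in liver, are on chromosome 12 of the mm10 assembly (108825873 to 108835883 on the minus strand and 108836046 to 108856815 on the plus strand), back to back with 162 bases between them in the table's annotation. Slc25a29 stood at 2.94, 3.74, 3.59 and 3.38 CPM in young uninjured, 2.61, 1.65, 4.13 and 1.35 CPM in young day 7, 12.1, 6.73, 8.64 and 8.23 CPM in old uninjured and 1.71, 2.19, 1.89 and 2.45 CPM in old day 7 muscle. Slc25a47 stood at 1.78, 4.00, 1.2 and 3.38 CPM in young uninjured, 3.32, 3.09, 3.10 and 1.90 CPM in young day 7, 7.32, 6.49, 7.04 and 6.33 CPM in old uninjured and 2.26, 2.08, 2.41 and 4.70 CPM in old day 7 muscle. Both were highest in old uninjured libraries among these groups, and both fell at day 7 in old muscle, by 2.11 (SE 0.29) and 1.25 (SE 0.30), the latter a call lost with library size alone (-0.26). Of the other members within 50000 bases of each other, Slc25a43 and Slc25a5 are on the plus strand of chromosome X, 18448 bases apart, and Slc25a54 and Slc25a24 on the plus strand of chromosome 3, 6461 bases apart, and all 4 had their highest counts at day 7. Slc25a41 and Slc25a23 are 2056 bases apart on chromosome 17.

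Old and young uninjured muscle differed in 8 of 41 members (19.5%, against 13.4% of all genes), 6 higher and 2 lower in old muscle (5.79% and 7.65% of all genes), with a median of 0.20 against 0.09 for all genes. With library size alone 11 were higher and 1 lower (11.4% and 3.22% of all genes, 14.6% in all), and the median of all genes moved to 0.29. Slc25a25 was lower in old muscle (log2 fold change -2.77, SE 0.53, adjusted p = 0.00105), with means of 149 ± 107 and 21.8 ± 3.30 CPM and no overlap between the libraries given above. Slc25a32 was also lower, at 38.6, 26.2, 41.8 and 22.8 CPM in young and 21.1, 19.6, 21.5 and 21.2 CPM in old uninjured muscle (log2 fold change -0.63, SE 0.18, adjusted p = 0.0166), a call that dropping young library 1 or 3, or old library 7, ended (edgeR adjusted p = 0.0881, 0.128 and 0.0567), as did library size alone. Slc25a24 was higher (log2 fold change 1.72, SE 0.36, adjusted p = 0.00189), and without old library 7 the change was 0.97, still past the test. Its groups overlapped, with old library 9 at 3.16 CPM and young library 2 at 3.74 CPM. With the compared groups fitted alone the call was lost (edgeR adjusted p = 0.0602). Slc25a29 (log2 fold change 1.38, SE 0.29, adjusted p = 0.00176) and Slc25a47 (log2 fold change 1.39, SE 0.31, adjusted p = 0.00329) were higher, with no overlap. Slc25a36 was higher at 47.4, 34.9, 42.7 and 40.3 CPM in young and 73.5, 57.7, 63.2 and 55.8 CPM in old muscle (log2 fold change 0.60, SE 0.16, adjusted p = 0.0114), and without old library 6 its adjusted p was 0.0501. Slc25a5 passed narrowly (log2 fold change 0.58, SE 0.20, adjusted p = 0.0497) and did not pass when young library 1, 3 or 4, or old library 6, 7 or 8, was dropped (adjusted p = 0.0539 to 0.276 in edgeR). The libraries of the 2 ages did not overlap for 9 members and 19.8% of all genes. Of the slow fibre markers, 4 of 6 were higher in old uninjured muscle, whereas none of the 8 fibre markers was called.

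**Figure D5:**
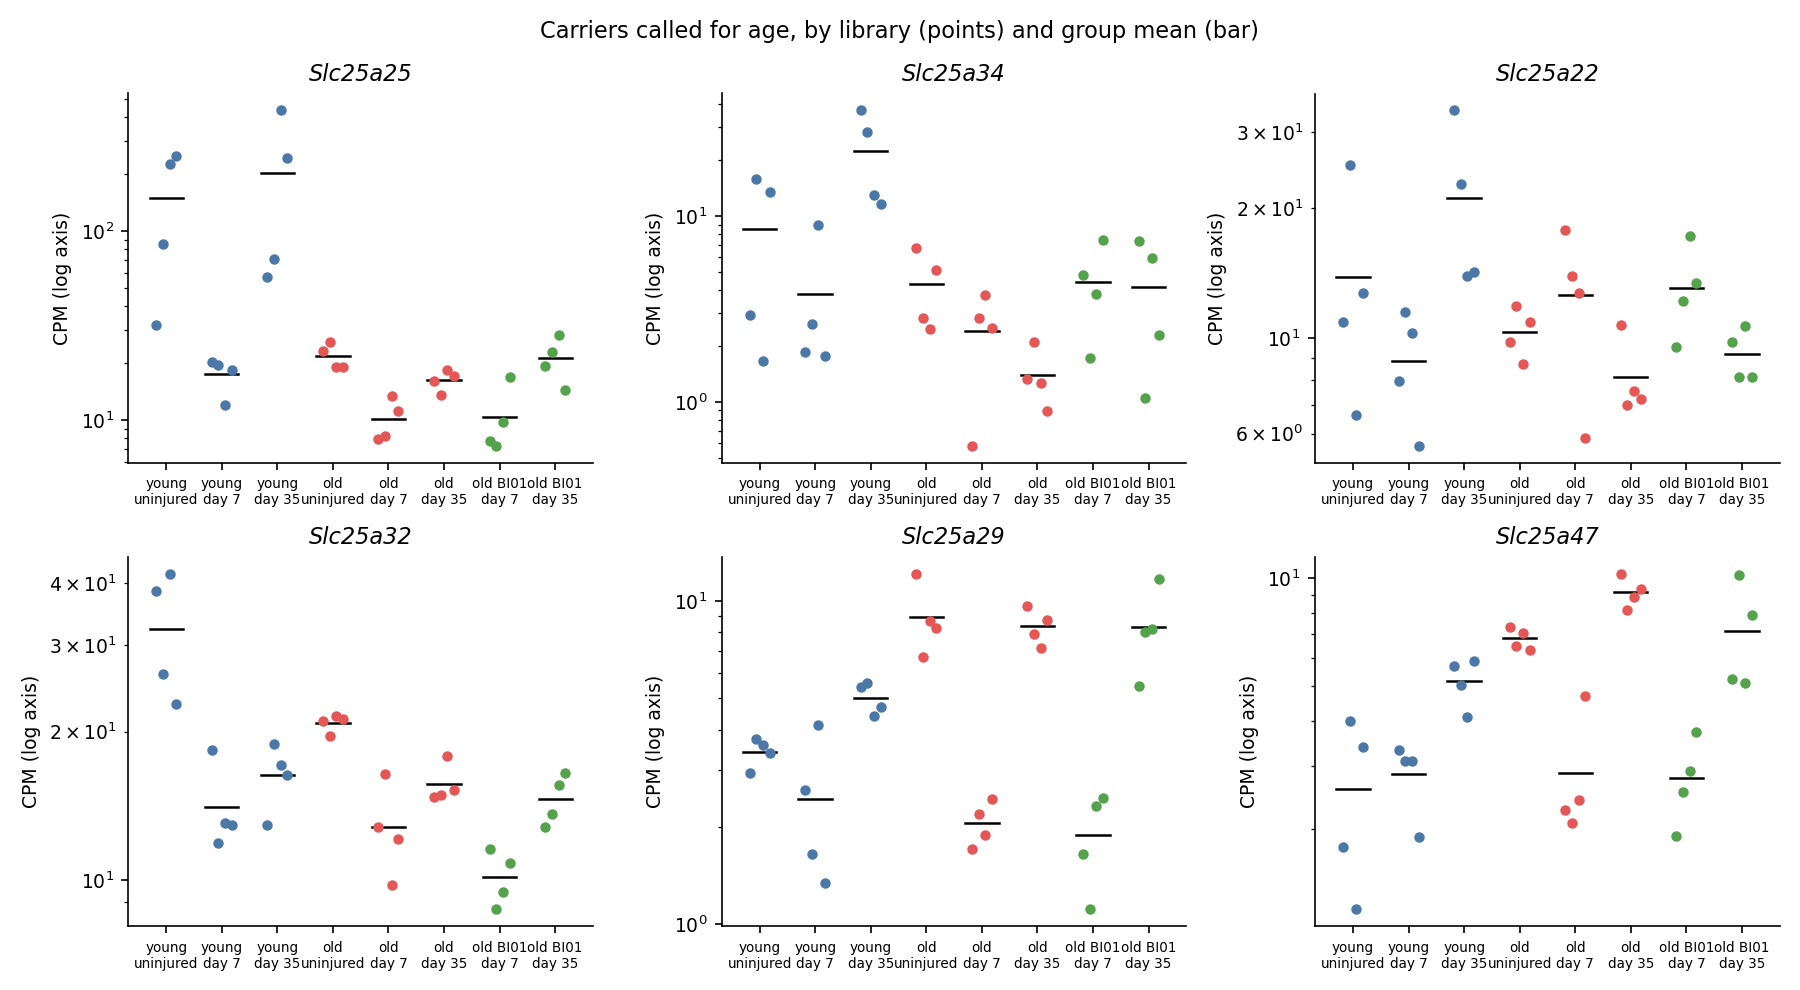
Points give the CPM of 6 carriers called for age in each library (y axis, log scale) by group (x axis), and bars the group mean. Slc25a25 lies at 31.9 CPM or more in all young uninjured and day 35 libraries and at 28.1 CPM or less in all old libraries, and Slc25a34 at day 35 lies at 11.6 CPM or more in young and 2.09 CPM or less in old vehicle muscle.

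At day 35 Slc25a25 was again lower in old muscle, as were Slc25a34 and Slc25a22. Old vehicle muscle had 3 of 41 members lower and none higher than young muscle (7.32%, against 3.51% of all genes). Slc25a25 stood at 57.3, 71.3, 435 and 244 CPM in young and 16.1, 13.5, 18.4 and 17 CPM in old vehicle muscle (log2 fold change -3.63, SE 0.55, adjusted p = 0.000199). Without young library 3 the change was -2.94. Slc25a34, an orphan carrier, stood at 37.1, 28.2, 13 and 11.6 CPM and 1.33, 2.09, 1.27 and 0.891 CPM (log2 fold change -3.99, SE 0.75, adjusted p = 0.00184). Slc25a22, a glutamate carrier, stood at 33.6, 22.7, 13.9 and 14.2 CPM and 10.7, 7.00, 7.53 and 7.21 CPM (log2 fold change -1.38, SE 0.33, adjusted p = 0.0128). This call ended without young library 1 (adjusted p = 0.0918 in edgeR) or old library 7 (0.0535). None of the 3 overlapped between the ages, which held for 13 members and 16.5% of all genes, and 1.79% of all genes were called lower. Ucp3 showed the same direction (-3.13, adjusted p = 0.00027), with means of 533 ± 98.5 CPM and 60.8 ± 15.1 CPM.

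At day 7 old vehicle muscle also had 3 members lower and none higher than young muscle (7.32%, against 2.43% of all genes, or 2.18% lower): Slc25a12 (log2 fold change -1.05, SE 0.28, adjusted p = 0.0397), Slc25a11 (log2 fold change -0.86, SE 0.24, adjusted p = 0.0439) and Slc25a46 (log2 fold change -0.65, SE 0.13, adjusted p = 0.012). Slc25a12 and Slc25a46 did not overlap between the ages, as 6.68% of all genes did not. These calls were unsteady. Without young day 7 library 7, or without old day 7 library 7, none passed; without young library 6 or old library 8 there was 1, without young library 4 there were 6 and without old library 9 there were 8. With library size alone none passed either (4.16% of all genes did), and the median of all genes moved from 0.04 to 0.36.

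By day 35 most carriers did not differ from uninjured muscle beyond the test. In young muscle 6 of 41 were called (14.6%, against 15.7% of all genes), 3 higher and 3 lower (7.06% and 8.66% of all genes), and with library size alone 9 higher and 1 lower (15.1% and 4.13%). The libraries did not overlap with the uninjured ones for 12 members in young and 10 in old vehicle muscle, against 19.8% and 19.4% of all genes. Slc25a32 was lower, at 12.9, 18.9, 17.1 and 16.3 CPM against 38.6, 26.2, 41.8 and 22.8 CPM (log2 fold change -0.99, SE 0.18, adjusted p = 0.000359), and it was the only 1 of the 6 that passed whichever library was left out. Slc25a30, a member found in kidney, was lower at 6.78, 6.06, 4.55 and 4.78 CPM against 16.4, 9.88, 14.4 and 4.92 CPM, with overlapping groups (log2 fold change -1.04, SE 0.29, adjusted p = 0.0146). Slc25a27 was higher at 24.7, 20.4, 22.2 and 25.1 CPM against 11.8, 13.6, 13 and 12.4 CPM (log2 fold change 0.86, SE 0.25, adjusted p = 0.0179). Slc25a24 (log2 fold change 1.08, SE 0.37, adjusted p = 0.0436) and Slc25a47 (log2 fold change 1.00, SE 0.31, adjusted p = 0.0272) were higher and Slc25a44 lower (log2 fold change -0.38, SE 0.13, adjusted p = 0.0399). Without young uninjured library 1 or 3 only 1 member passed, without young day 35 library 1 there were 3 and without library 4 there were 2. In old vehicle muscle 1 member was called (2.44%, against 5.64% of all genes, or 2.47% lower): Slc25a28 stood at 28.1, 32.8, 32.3 and 25.8 CPM at day 35 against 43.0, 42, 50.4 and 43.1 CPM uninjured (log2 fold change -0.58, SE 0.16, adjusted p = 0.0275). This call ended without old uninjured library 8 or 9 or day 35 library 6 or 9 (adjusted p = 0.0525 to 0.105 in edgeR). The difference between the ages in the day 35 response passed for none of the members in edgeR, DESeq2 or limma voom (0% of all genes in edgeR), with 6 members at an unadjusted p under 0.05.

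BI01 gave no called carrier. At day 7 and at day 35 none of the 41 members passed between old BI01 and old vehicle muscle in edgeR, DESeq2 or limma voom (0% of all genes tested in edgeR), and 1 member at each day had an unadjusted p under 0.05. No member was without overlap between the groups at either day, where 1.76% and 3.02% of all genes were. The median member changed by 0.08 at day 7 and -0.06 at day 35. Slc25a4 stood at 549, 469, 1007 and 1439.9 CPM with BI01 at day 7 (difference from vehicle 0.54, SE 0.33, adjusted p = 0.754) and at 3059.9, 3170.3, 3894 and 3475 CPM at day 35 (difference from vehicle -0.06, SE 0.33, adjusted p = 1). Slc25a34 stood at 7.34, 1.05, 5.96 and 2.30 CPM with BI01 at day 35 (difference from vehicle 1.56, SE 0.73, adjusted p = 1), and its libraries overlapped those of vehicle. Slc25a25 stood at 19.2, 23.0, 28.1 and 14.3 CPM with BI01 at day 35, also below every young library at that day. At the median SE of the members, a 95% interval reached 0.52 to either side of a log2 difference at day 7 and 0.56 at day 35. The difference between the BI01 effects at the 2 days passed for none, with 0 members at an unadjusted p under 0.05.

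Of other mitochondrial membrane genes, those of the outer membrane channel and carrier import were more often lower than higher at day 7 by TMM. For carrier import this turned with library size alone. All 5 genes of the outer membrane channel and pyruvate entry fell in old muscle (median -2.24) and 4 of 5 in young (median -1.15), or 4 and 2 with 1 higher in young by library size alone, with the channel gene Vdac1 at -2.41 and -1.47. Of 12 genes of the import machinery that inserts carriers into the inner membrane, 8 fell in old muscle and none rose (median -0.67). In young muscle 5 fell and 2 rose (median -0.31). Of all genes 29.8% were lower in old and 27.5% in young muscle. With library size alone 4 import genes rose and 1 fell in old muscle (median 0.34), and 6 rose and none fell in young (median 0.56). Under that scaling 62.9% of all genes were higher in old and 59.6% in young muscle. Timm8b, a chaperone of the space between the membranes, was at -2.32 in old and -1.31 in young muscle. Genes of mitochondrial one-carbon and glycine metabolism moved less in 1 direction, with 2 of 9 higher and none lower in young and 3 higher and 3 lower in old muscle, or 7 and 6 higher and none lower with library size alone. Mthfd1l, which makes formate, was at 3.16 and 4.67.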

How the data were processed

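RNA from 32 libraries of mouse tibialis anterior, extracted with a miRNeasy kit per the labels' protocols, was sequenced as mRNA by Novogene. The authors deposited raw counts of reads per gene with gene coordinates and lengths; HISAT2 and the mm10 build are named in the submitters' processing notes, with no counter, annotation release or strandedness given in the sources. The table's columns show a library's group but not which labelled replicate it is, so libraries are numbered as in the table. From the deposited counts, CPM were computed with TMM scaling, and genes with enough counts in a group (filterByExpr) were tested with edgeR 4.0.16 in R 4.3.3 (quasi-likelihood test, robust, 1 mean per group over all 32 libraries, Benjamini-Hochberg over 17121 genes, called under 0.05). Changes are log2 fold changes with their SE. The scripts were tested on simulated data. Values in every library were printed for the members highest per kilobase, those of 6 ratios, and up to 3 called members with the largest rise and fall per comparison with at least 5 CPM, and others were named after their values were seen. The values of 1 member, which the counts of members include, are not reported here. The members and lists were chosen with earlier results of these data known. Alternatives were DESeq2 1.42.0, limma voom 3.58.1, other scalings and filters, the compared groups fitted alone, a block on the column numbers at day 35 and each library left out. Depth was 14129350 to 30439358 counts per library, and floors of 3 counts cover counting error only. Intervals were built from the SE of the quasi-likelihood test and so include the spread between these libraries, which may in part be technical.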

Additional observations from a re-analysis of the deposited data

Results flagged for a closer look

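In 17 of 264 group values a library stood apart from the other 3 of its group by Dixon's test, which chance does in about 1 group of 20. In old uninjured muscle, Slc25a10 was at 2.82 CPM in library 6 against 4.25 to 4.54 CPM in the others, Slc25a13 at 0.557 CPM in library 7 against 0.153 to 0.181 CPM, and Slc25a28 at 50.4 CPM in library 8 against 42 to 43.1 CPM. In the same group the log2 ratio of Slc25a13 to Slc25a12 was -9.87 in library 7 against -11.9 to -11.6.

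At day 7, old vehicle library 7 held 5.64 CPM of Slc25a13 against 1.75 to 2.08 CPM, and 31.2 CPM of Slc25a46 against 42.4 to 44.2 CPM. This library also had the lowest sum of muscle fibre markers of its group, 10240 CPM. Old vehicle library 10 held 4.70 CPM of Slc25a47 against 2.08 to 2.41 CPM, and the log2 ratio of Slc25a39 to Slc25a40 was 2.22 in old vehicle library 9 against 2.66 to 2.73. In young muscle at day 7, library 6 held 8.98 CPM of Slc25a34 against 1.77 to 2.63 CPM and 20.8 CPM of Slc25a44 against 17.3 to 17.7 CPM, and library 7 held 1.90 CPM of Slc25a47 against 3.09 to 3.32 CPM.

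At day 35, old vehicle library 6 held 10.7 CPM of Slc25a22 against 7.00 to 7.53 CPM, and library 7 held 5.10 CPM of Slc25a40 against 7.30 to 7.46 CPM. Old vehicle library 8 held 17.9 CPM of Slc25a32 against 14.7 to 15.2 CPM and 33.9 CPM of Slc25a44 against 35.8 to 36.0 CPM. Young library 1 held 84.1 CPM of Slc25a42 against 59.5 to 63.4 CPM, and old BI01 library 9 held 16.1 CPM of Slc25a27 against 23.5 to 24.7 CPM.

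The response to injury at day 7 differed between old and young muscle for 9 members in edgeR's quasi-likelihood test of the difference. All 9 had a more negative log2 response in old muscle. Among them the log2 differences were -1.04 for Slc25a3 (adjusted p = 0.0423), -1.51 for Slc25a4 (adjusted p = 0.0417), -1.26 for Slc25a11 (adjusted p = 0.0193), -1.64 for Slc25a29 (adjusted p = 0.0142), -0.92 for Slc25a36 (adjusted p = 0.0128), -0.62 for Slc25a37 (adjusted p = 0.0405) and -1.40 for Slc25a47 (adjusted p = 0.0431). That of Slc25a43, -5.36 (adjusted p = 0.0424), is set against 0 counts in young uninjured muscle and its size has no meaning as a bound.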

How the results depend on the processing

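The table's columns cannot be tied to the replicate numbers of the labels, but within the 35-day experiment the groups share numbers in the column names. With a replicate block on these numbers, chosen after the data were seen, there were 6 members called for day 35 in young muscle, 1 for day 35 in old muscle, and 0 for BI01 at day 35 and for the difference at day 35, as without the block, and the 6 and the 1 were the same genes. Deviations from the group means correlated over 17121 genes by -0.03 to 0.16 between libraries of the same number in young and 0.01 to 0.11 in old vehicle muscle. Between old vehicle and BI01 muscle this was -0.10 to 0.03. Of the 4 pairs in each comparison, 3 in young, 1 in old vehicle muscle and 0 between vehicle and BI01 were over 0.1. In the same order 3, 2 and 0 pairs were each other's best match. In no comparison did every pair reach the 0.1 required or every library correlate best with its own number. Whether some libraries of the same number are matched, as in young muscle, is therefore not settled. Unless said otherwise the counts are members called, and the cause of each change was not tested. With the compared groups fitted alone there were 5 for age in uninjured muscle, 7 for day 35 in old muscle, 0 for age at day 7, 11 for age at day 35 and, for the difference at day 7, 1. With library size alone there were 10 for day 35 in young muscle, 0 for day 35 in old muscle, 0 for age at day 7 and 5 for the difference at day 7. Without a filter there were 0 for day 35 in old muscle, 1 for age at day 7 and 5 for the difference at day 7. Age at day 7 gave 1 with RLE factors, 6 with DESeq2 and 5 with limma voom, and age at day 35 gave 5 with DESeq2. Scaled to mitochondrial content genes, day 35 in old muscle gave 0 (2.10% of all genes were called). Age at day 7 gave 21, of which 20 were higher and 1 lower, where 45.7% of all genes were called and 45.1% were higher. For the other alternatives the share of all genes called is not given here, so their counts cannot be set against it.

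Leaving out 1 library gave 6 to 8 for age in uninjured muscle, 23 to 26 and 28 to 30 for day 7 in young and old muscle, 1 to 8 and 0 to 1 for day 35 in young and old muscle, 0 to 8 for age at day 7, 2 to 3 for age at day 35, 3 to 8 for the difference at day 7, and 0 for both BI01 comparisons and both other differences. The change in the log2 ratio of Slc25a5 to Slc25a4 ranged from 3.07 to 3.60 for day 7 in young and 4.08 to 4.89 in old muscle, -0.17 to 0.32 for age in uninjured muscle, 0.86 to 1.67 for age at day 7, 0.40 to 0.61 for age at day 35, -0.64 to -0.16 and -0.15 to 0.27 for day 35 in young and old muscle, and -0.73 to 0.09 and -0.32 to -0.03 for BI01 at day 7 and day 35.

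With library size alone, Slc25a51 turned to 0.14 at day 7 in young muscle, and in old muscle at day 7 Slc25a15 turned to 0.072, Slc25a23 to 0.15, Slc25a32 to 0.30, Slc25a46 to 0.36 and Slc25a51 to 0.17. Scaled to mitochondrial content genes, at day 7 in old muscle Slc25a3 turned to 0.087, Slc25a15 to 0.57, Slc25a23 to 0.59, Slc25a32 to 0.87, Slc25a36 to 0.51, Slc25a38 to 0.46, Slc25a44 to 0.13, Slc25a46 to 0.87, Slc25a47 to 0.28 and Slc25a51 to 0.70. Under that scaling Slc25a46 turned to 0.12 for age at day 7, and Slc25a36 to 0.12 and Slc25a37 to 0.41 for the difference at day 7.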
